A study of Mus musculus with 16 samples.

Results

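The genes described here are 36 antiviral interferon-stimulated genes, chosen by symbol from 10 functional groups and read from the gene tables of 16 mouse heart RNA-seq libraries. All 36 were found among 55278 gene symbols and all passed the filter on low counts that 18713 genes passed. Male C57BL/6J mice of 8 to 12 weeks had received an intraperitoneal injection, either of 5 mg/kg of lipopolysaccharide (LPS, the endotoxin of Gram-negative bacteria) or of phosphate-buffered saline (PBS), and hearts were collected 12 h later. There were 4 groups of 4 libraries: Ppara-Flox with PBS, PPARα-deficient with PBS, Ppara-Flox with LPS and PPARα-deficient with LPS. Ppara-Flox mice carried the floxed Ppara gene, and the other genotype lacked PPARα, a nuclear receptor that drives fatty acid oxidation genes, in cardiomyocytes. The labels name no Cre driver and no group carried Cre alone. They number 4 samples a group without saying that each is a separate animal, so the p-values measure the spread between these samples only.

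Interferons are secreted alarm proteins. In the textbook route LPS binds TLR4, the adaptor TRIF activates the factor IRF3, and interferon beta is made. Type I interferon then acts through its receptor, JAK kinases and a complex that includes IRF9 and binds the interferon-stimulated response element (ISRE), whereas interferon gamma acts mainly through gamma-activated sites (GAS). The induced genes bind or cut viral RNA, tag proteins, alter membranes or feed the signal back.

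The deposited values are estimated read counts, given here as CPM, which sets a count against the scaled total of its library. The extraction text speaks of islets, but 5 pancreatic islet genes were at 0 in every library while heart muscle genes were abundant. Library totals lay between 65569134 and 75436023, and small counts gathered at multiples of 4. A floor of 12 estimated counts (taken as 3 read pairs) therefore stands for the limit of detection by counting error alone. Ppara was at 59.3, 37.4, 47.7 and 56.4 CPM in PBS Ppara-Flox hearts and at 11.4, 17.6, 15.1 and 14.2 CPM in PBS PPARα-deficient hearts. After LPS it was at 10.1, 7.23, 13.1 and 14.7 CPM and at 4.25, 6.32, 11.9 and 9.45 CPM, and these ranges overlapped. The numbers in the column headers ran from 957 to 1075 in PBS libraries and from 1739 to 1769 in LPS libraries, so that LPS and whatever these numbers record cannot be told apart.

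LPS raised nearly the whole set in both genotypes. In Ppara-Flox hearts 33 of 36 genes rose and 0 fell at an adjusted p under 0.05, where 20.2% of all genes tested rose and 19.1% fell. In PPARα-deficient hearts 34 of 36 rose and 0 fell, against 19.4% and 18.3% of all genes. The genes were chosen with earlier results of these data known, so the contrast with all genes is a description of the set. The median log2 fold change of the 36 genes was 2.30 in Ppara-Flox and 2.38 in PPARα-deficient hearts, and 0.01 over all genes in each. At least a 2-fold rise that passed the test was seen for 32 genes in each genotype (all genes, 8.07% and 7.65%), and the LPS libraries did not overlap the PBS libraries for 33 and 34 genes (all genes, 19.2% and 19.5%). The LPS comparisons of the genotypes use separate libraries, whereas each comparison between genotypes shares libraries with both of them. In bulk tissue, more RNA per cell and more cells of a type cannot be told apart.

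**Figure D1:**
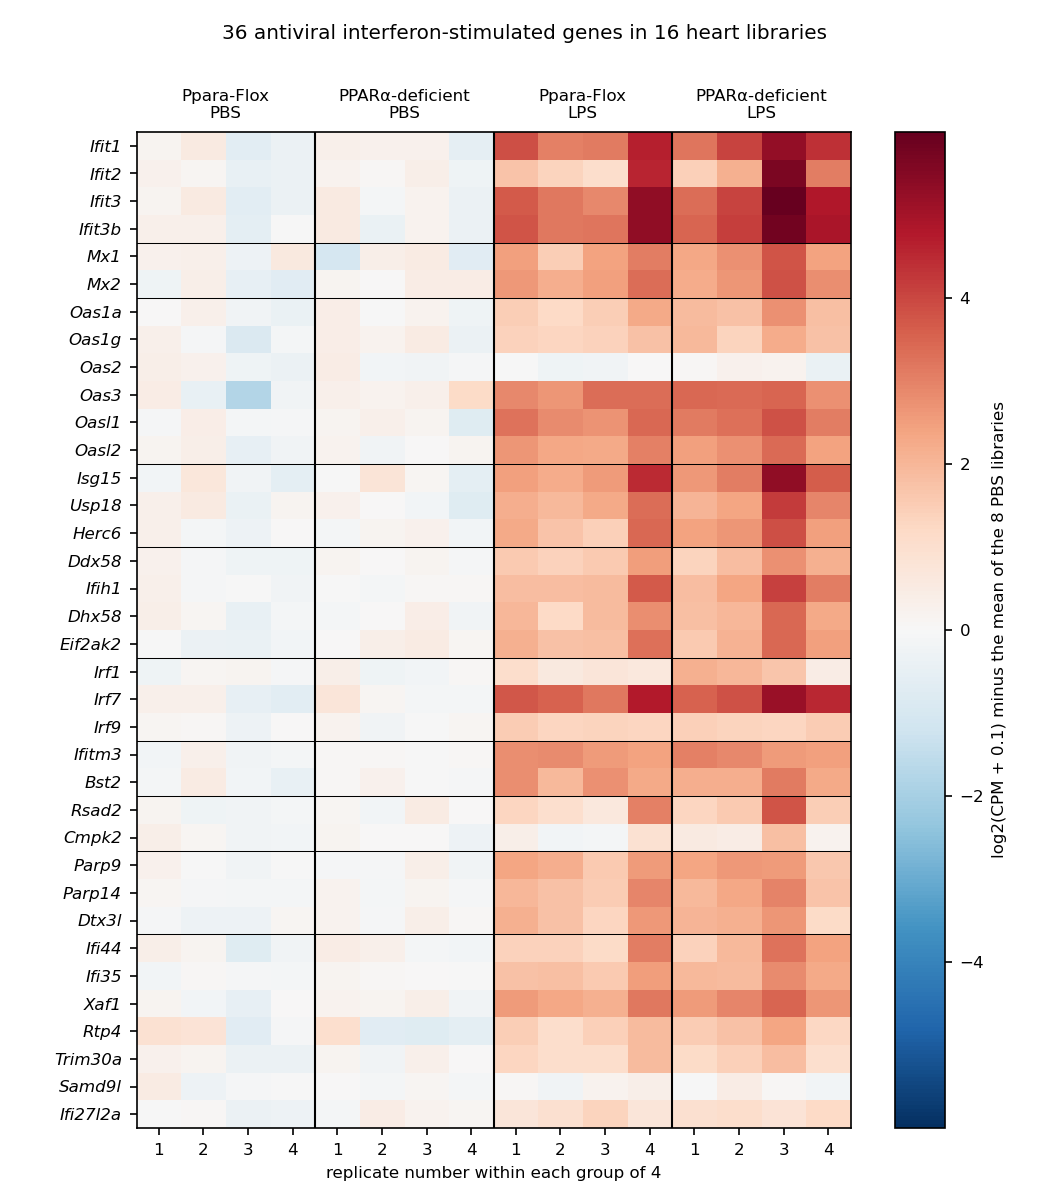
Each row is 1 of the 36 genes in its functional group and each column 1 of 16 libraries, and colour gives log2(CPM + 0.1) minus the mean of the 8 PBS libraries. Nearly all rows are red in the 8 LPS libraries. Oas2 and Samd9l are not, and Cmpk2 is not in every Ppara-Flox LPS library. The darkest columns are replicate 4 of the Ppara-Flox and replicate 3 of the PPARα-deficient LPS hearts.

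Promoters are shown for 6 of the genes that carry the DNA letters to which the ISRE and GAS factors are known to bind. All 6 rose after LPS, Irf1 least (log2 fold change 0.75 in Ppara-Flox and 1.665 in PPARα-deficient hearts). The 6 were picked among genes with a match, and a part of these letters in the rise was not tested. The RefSeq promoter table (GRCm38.p6, from 250 bases before to 50 bases after each start) held 31 promoters of 27 of the 36 genes. The ISRE core was searched as GAAA followed after any 2 bases by another GAAA, or on the other strand TTTC spaced likewise from TTTC, and the GAS as TTCNNNGAA, which reads the same on both strands. The 200 bases before the start are printed below from 5′ to 3′ on the gene's strand, in lower case with each ISRE core match in capitals (for Irf1, the GAS match). They come from chr4:156200819-156201018, minus strand (Isg15), chr19:34640689-34640888, plus strand (Ifit1), chr19:34583329-34583528, plus strand (Ifit3), chr19:34607757-34607956, plus strand (Ifit3b), chr12:26456453-26456652, minus strand (Rsad2) and chr11:53769814-53770013, plus strand (Irf1).
Isg15: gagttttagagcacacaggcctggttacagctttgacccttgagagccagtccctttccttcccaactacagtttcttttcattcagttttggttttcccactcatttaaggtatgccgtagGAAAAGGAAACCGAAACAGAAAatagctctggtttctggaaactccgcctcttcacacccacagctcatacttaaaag
Ifit1: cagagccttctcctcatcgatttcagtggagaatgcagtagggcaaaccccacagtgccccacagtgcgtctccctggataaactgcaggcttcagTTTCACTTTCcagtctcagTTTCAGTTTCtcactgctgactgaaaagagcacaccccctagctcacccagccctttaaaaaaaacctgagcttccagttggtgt
Ifit3: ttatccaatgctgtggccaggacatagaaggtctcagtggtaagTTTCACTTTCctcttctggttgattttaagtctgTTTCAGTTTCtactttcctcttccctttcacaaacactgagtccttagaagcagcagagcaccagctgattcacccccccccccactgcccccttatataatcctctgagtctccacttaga
Ifit3b: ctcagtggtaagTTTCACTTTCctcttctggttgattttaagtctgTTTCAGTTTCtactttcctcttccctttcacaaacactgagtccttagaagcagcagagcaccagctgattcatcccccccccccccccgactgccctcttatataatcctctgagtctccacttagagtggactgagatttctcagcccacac
Rsad2: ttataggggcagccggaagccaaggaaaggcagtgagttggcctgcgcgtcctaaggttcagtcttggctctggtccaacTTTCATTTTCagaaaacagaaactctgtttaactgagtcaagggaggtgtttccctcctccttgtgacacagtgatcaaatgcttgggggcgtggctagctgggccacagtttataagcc
Irf1: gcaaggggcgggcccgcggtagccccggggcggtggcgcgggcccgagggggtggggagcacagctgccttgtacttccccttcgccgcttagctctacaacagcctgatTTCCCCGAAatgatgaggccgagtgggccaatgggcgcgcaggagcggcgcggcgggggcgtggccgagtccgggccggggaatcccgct

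Isg15 held 3 overlapping ISRE core matches starting 78 bases before its start. In Ifit1 a pair of matches began 104 bases upstream. The neighbouring paralogues Ifit3 and Ifit3b held the same pair, beginning 156 and 188 bases upstream. Of the 27 genes with a promoter, 14 (51.9%) held an ISRE core match, against 3.99% of the 27025 genes in the table (3.44% of its 32851 promoters). A GAS match stood in 7 of 27 (25.9%) against 9.55% of genes (8.3% of promoters), and in Ifitm3 and Bst2 it shared bases with an ISRE core match. The 14 genes with an ISRE core match had a median LPS log2 fold change of 2.62 in Ppara-Flox and 2.56 in PPARα-deficient hearts. For the 13 without one it was 2.15 and 2.29, and for the 9 genes with no promoter listed it was 2.21 and 2.33. These medians differ by little beside the range within each set (1.41 to 4.18 and 0.07 to 4.01 for the first 2 sets in Ppara-Flox hearts). A match describes letters only.

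**Figure D2:**
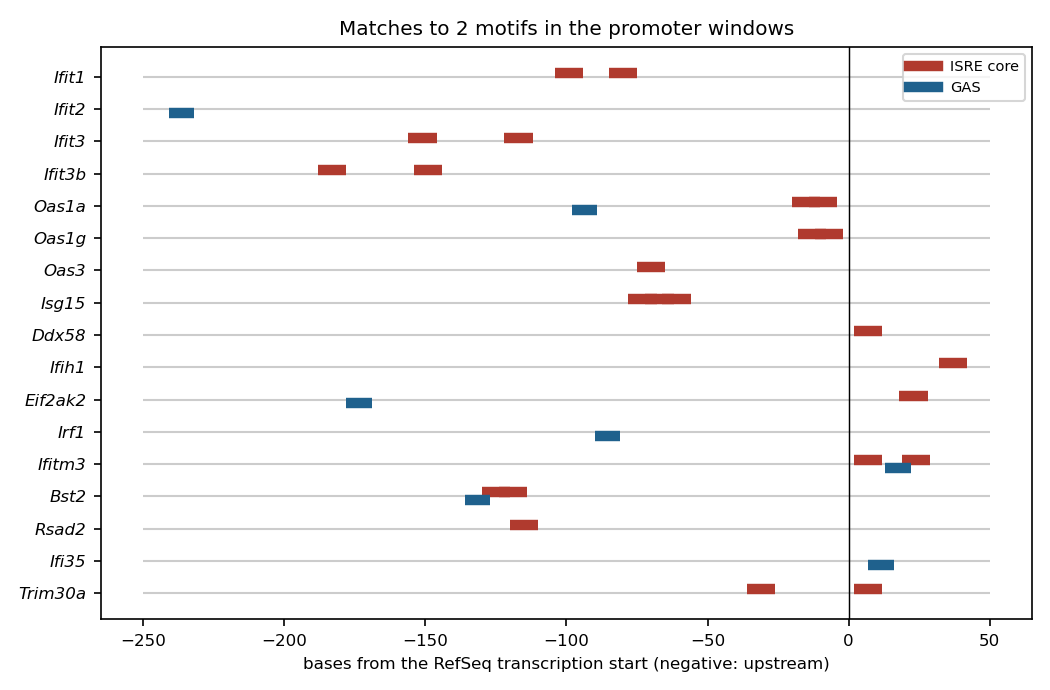
Horizontal lines are the promoter windows of the 17 genes with a match, on an axis in bases from the RefSeq start, with ISRE core matches in red and GAS matches in blue. Most ISRE core matches lie before the start, and all those of Ddx58, Ifih1, Eif2ak2 and Ifitm3 lie after it.

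The IFIT proteins, which bind foreign or incompletely capped RNA, had the largest median response of the 10 groups (log2 fold change 3.99 in Ppara-Flox and 4.56 in PPARα-deficient hearts), and 4 of 4 rose in each. The 4 genes of the set lie within 99.3 kb (chr19:34550694-34650009, GRCm38), a span that was not searched for other genes. Ifit1 was at 5.68, 7.47, 3.26 and 3.98 CPM in PBS Ppara-Flox hearts and at 6.42, 6.07, 6.15 and 3.505 CPM in PBS PPARα-deficient hearts. After LPS Ifit1 was at 75.9, 42.8, 45.1 and 131 CPM in Ppara-Flox hearts and at 47.8, 87.7, 200.2 and 109 CPM in PPARα-deficient hearts. The LPS values lay above every PBS value, and the log2 fold change was 3.85 ± 0.45 (SE, adjusted p = 4.52e-06) in Ppara-Flox and 4.33 ± 0.46 (SE, adjusted p = 1.73e-06) in PPARα-deficient hearts. Ifit3 rose by 4.12 ± 0.61 (SE, adjusted p = 4.51e-05) and 4.79 ± 0.63 (SE, adjusted p = 1.44e-05) on the log2 scale, and Ifit3b by 4.18 ± 0.56 (SE, adjusted p = 1.72e-05) and 4.82 ± 0.58 (SE, adjusted p = 5.5e-06). Ifit3 and Ifit3b share many 50-base words with other genes (51.2% and 45.0% of those in their longest transcripts, GENCODE vM21), so the submitters' counting may have split reads between them. Ifit2, which is linked to cell death as well as to RNA binding, varied most within each LPS group. It was at 48.5, 36.7, 30.1 and 349.8 CPM in Ppara-Flox and at 40.1, 65.5, 730.1 and 123 CPM in PPARα-deficient LPS hearts. Its change was 3.05 ± 0.88 (SE, adjusted p = 0.0105) and 3.92 ± 0.91 (SE, adjusted p = 0.00254). Without Ppara-Flox LPS replicate 4 the first became 1.45 ± 0.68 (adjusted p = 0.112) and lost its call, and without PPARα-deficient LPS replicate 3 the second became 2.27 ± 0.67 (adjusted p = 0.0153).

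Mx proteins are dynamin-like GTPases that block viral particles, though laboratory strains such as C57BL/6 are known to carry defective copies, and GENCODE lists Mx2 as a polymorphic pseudogene. Both transcripts rose. Mx2 was at 1.22, 1.901, 1.03 and 0.897 CPM in PBS Ppara-Flox hearts and at 1.71, 1.49, 2.07 and 2.07 CPM in PBS PPARα-deficient hearts. After LPS Mx2 was at 9.48, 7.09, 8.57 and 16.3 CPM in Ppara-Flox hearts and at 7.38, 9.74, 22.3 and 10.9 CPM in PPARα-deficient hearts. Its change was 3.04 ± 0.35 (SE, adjusted p = 4.29e-06) and 2.78 ± 0.35 (SE, adjusted p = 9.49e-06) in Ppara-Flox and PPARα-deficient hearts, and no LPS library overlapped the PBS libraries. Mx1, with the second-lowest level per length after LPS, changed by 2.42 ± 0.47 (SE, adjusted p = 0.000549) and 3.28 ± 0.48 (SE, adjusted p = 4.79e-05).

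OAS enzymes sense double-stranded RNA and make a short messenger that activates the nuclease RNase L. Some OAS-like proteins act on RNA sensors or translation. Of 6 genes 5 rose in each genotype, and Oas2 did not pass the test. Oasl1 was at 2.19, 3.04, 2.08 and 2.16 CPM in PBS Ppara-Flox hearts and at 2.53, 2.81, 2.6001 and 1.32 CPM in PBS PPARα-deficient hearts. After LPS Oasl1 was at 23.01, 16.7, 15.4 and 25.9 CPM in Ppara-Flox hearts and at 20.5, 23.1, 33.2 and 19.7 CPM in PPARα-deficient hearts. The groups were fully separated by treatment (change 3.09 ± 0.25 (SE, adjusted p = 9.08e-08) and 3.38 ± 0.26 (SE, adjusted p = 4.3e-08)). Oasl2 changed by 2.64 ± 0.24 (SE, adjusted p = 2.69e-07) and 2.76 ± 0.24 (SE, adjusted p = 2.07e-07). Oas3 rose from a very low base: its PBS Ppara-Flox libraries lay between 0.0517 and 0.597 CPM, and the lowest of these is under the floor. It changed by 3.76 ± 0.46 (SE, adjusted p = 7.02e-06) and 2.93 ± 0.44 (SE, adjusted p = 5.28e-05). Oas1a and Oas1g, whose longest transcripts are 90.6% identical and share 57.6% and 54.7% of their 50-base words with other genes, changed by 1.75 ± 0.27 and 1.67 ± 0.27 in Ppara-Flox hearts and by 2.04 ± 0.27 and 1.69 ± 0.27 in PPARα-deficient hearts, which the counting may have mixed. Oas2 lies beside them and Oas3 (chr5:120730333-120907521 spans the 4 genes). Oas2 was at 27.3, 26.01, 18.2 and 17.01 CPM in PBS Ppara-Flox hearts and at 29.6, 19.4, 18.5 and 20.9 CPM in PBS PPARα-deficient hearts. After LPS Oas2 was at 21.3, 18.02, 18.9 and 21.9 CPM in Ppara-Flox hearts and at 23.1, 25.6, 25.1 and 16.6 CPM in PPARα-deficient hearts. All 4 ranges overlapped, and the change was -0.15 ± 0.18 (SE, adjusted p = 0.569) and 0.03 ± 0.18 (SE, adjusted p = 0.915).

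ISG15 is a ubiquitin-like tag, HERC6 its main ligase in mice, and USP18 the protease that removes it and also dampens the interferon receptor. The 3 genes rose in each genotype. Herc6 was at 6.53, 4.77, 4.25 and 5.29 CPM in PBS Ppara-Flox hearts and at 4.84, 5.92, 6.31 and 4.62 CPM in PBS PPARα-deficient hearts. After LPS Herc6 was at 25.9, 17.5, 14.5 and 58.4 CPM in Ppara-Flox hearts and at 28.1, 33.9, 78.5 and 29.4 CPM in PPARα-deficient hearts. Replicate 4 of the Ppara-Flox and replicate 3 of the PPARα-deficient LPS group were highest, and Herc6 changed by 2.48 ± 0.41 (SE, adjusted p = 0.000122) and 2.97 ± 0.41 (SE, adjusted p = 2.59e-05). Its transcript shares 23.8% of 50-base words with the gene model Gm45193. Usp18 was at 4.81, 5.64, 2.95 and 4.38 CPM in PBS Ppara-Flox hearts and at 4.73, 3.93, 3.42 and 2.28 CPM in PBS PPARα-deficient hearts. After LPS Usp18 was at 17.9, 15.2, 18.996 and 40.1 CPM in Ppara-Flox hearts and at 16.4, 20.7, 72.2 and 30.2 CPM in PPARα-deficient hearts. Usp18 changed by 2.38 ± 0.43 (SE, adjusted p = 0.000295) and 3.28 ± 0.44 (SE, adjusted p = 1.98e-05), with the same pair of libraries highest. Isg15 itself, described per library after its values were seen, was at 19.03, 16.5, 20.7 and 78.1 CPM in Ppara-Flox and 21.4, 29.4, 142 and 44.2 CPM in PPARα-deficient LPS hearts, above a PBS range of 2.21 to 5.99 CPM. It changed by 3.29 ± 0.63 (SE, adjusted p = 0.000517) and 3.95 ± 0.65 (SE, adjusted p = 0.000127). Without Ppara-Flox LPS replicate 4 the first was 2.45 ± 0.53, and without PPARα-deficient LPS replicate 3 the second was 3.05 ± 0.51, both still past the test.

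Cytosolic RNA sensors also rose, 4 of 4 in each genotype counting the kinase PKR. RIG-I (Ddx58) and MDA5 (Ifih1) detect viral RNA and signal through MAVS, LGP2 (Dhx58) tunes them, and PKR (Eif2ak2) halts translation. Ddx58 was at 17.9, 14.5, 12.6 and 12.7 CPM in PBS Ppara-Flox hearts and at 16.9, 15.1, 16.9 and 14.5 CPM in PBS PPARα-deficient hearts. After LPS Ddx58 was at 44.5, 39.4, 44.6 and 86.1 CPM in Ppara-Flox hearts and at 37.6, 54.1, 101 and 65.7 CPM in PPARα-deficient hearts. The change was 1.89 ± 0.27 (SE, adjusted p = 3.36e-05) and 2.02 ± 0.27 (SE, adjusted p = 1.89e-05). Ifih1 changed by 2.59 ± 0.47 (SE, adjusted p = 0.000299) and 3.12 ± 0.48 (SE, adjusted p = 6.73e-05), Dhx58 by 2.11 ± 0.37 and 2.53 ± 0.37, and Eif2ak2 by 2.65 ± 0.38 and 2.33 ± 0.38. Ifih1 was uneven in both LPS groups, with 33.1, 33.1, 33.7 and 118 CPM in Ppara-Flox and 32.5, 46.9, 158 and 75.6 CPM in PPARα-deficient hearts, where replicate 4 of the first and replicate 3 of the second lay highest.

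The 3 interferon regulatory factors took different courses. IRF7, the amplifier of type I interferon production, had the largest change among them: 4.01 ± 0.42 (SE, adjusted p = 1.43e-06) and 4.25 ± 0.43 (SE, adjusted p = 9.32e-07). It was at 113, 100.1, 76.7 and 229.9 CPM in Ppara-Flox and 99.3, 122, 314 and 199 CPM in PPARα-deficient LPS hearts. IRF9, a DNA-binding part of the complex on the ISRE, rose by a small and even amount. Irf9 was at 21.8, 21.3, 16.1 and 20.4 CPM in PBS Ppara-Flox hearts and at 23.3, 17.4, 19.9 and 22.02 CPM in PBS PPARα-deficient hearts. After LPS Irf9 was at 57.9, 49.1, 51.2 and 49.2 CPM in Ppara-Flox hearts and at 54.1, 51.1, 49.6 and 57.7 CPM in PPARα-deficient hearts. All 8 LPS libraries lay within 49.1 to 57.9 CPM (change 1.38 ± 0.11 (SE, adjusted p = 7.49e-08) and 1.36 ± 0.11 (SE, adjusted p = 9.23e-08)). IRF1, which interferon gamma and inflammatory signals induce early, changed by 0.75 ± 0.25 (SE, adjusted p = 0.0255) and 1.67 ± 0.26 (SE, adjusted p = 7.39e-05). In Ppara-Flox hearts Irf1 lost its call without PBS Ppara-Flox replicate 1 (adjusted p = 0.0731) or 4 (0.0559) or Ppara-Flox LPS replicate 1 (0.0782).

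Ifitm3 and Bst2 encode membrane proteins that block viral fusion and tether budding particles. Ifitm3 had the smallest adjusted p of the 36 genes in each genotype. Ifitm3 was at 43.7, 60.4, 43.2 and 45.9 CPM in PBS Ppara-Flox hearts and at 51.5, 52.5, 48.7 and 52.8 CPM in PBS PPARα-deficient hearts. After LPS Ifitm3 was at 348, 357, 294 and 265 CPM in Ppara-Flox hearts and at 401, 364, 291 and 273 CPM in PPARα-deficient hearts. The LPS libraries lay far above the PBS libraries, and the change was 2.71 ± 0.14 (SE, adjusted p = 1.03e-09) and 2.69 ± 0.14 (SE, adjusted p = 1.17e-09). Bst2 changed by 2.53 ± 0.25 (SE, adjusted p = 6.14e-07) and 2.43 ± 0.25 (SE, adjusted p = 1.01e-06), from a PBS range of 11.8 to 22.4 CPM to an LPS range of 62.8 to 139.9 CPM. Per kb of exon, which allows genes to be compared, Ifitm3 stood highest in every group: 71.2 and 75.7 CPM per kb under PBS and 466 and 490.4 after LPS. Next after LPS in Ppara-Flox hearts came Bst2 at 101 and Ifit3 at 93.1, whose order was the opposite in PPARα-deficient hearts (101 and 159.8). Oas3 stood lowest, at 0.605 and 0.703.

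Viperin (Rsad2) makes a chain-terminating nucleotide, and CMPK2 supplies its substrate. Their genes are neighbours on chromosome 12, 12751 bases apart. Rsad2 was at 24.3, 18.6, 19.1 and 20.1 CPM in PBS Ppara-Flox hearts and at 23.5, 19.3, 30.9 and 22.7 CPM in PBS PPARα-deficient hearts. After LPS Rsad2 was at 53.9, 44.2, 33.8 and 181 CPM in Ppara-Flox hearts and at 54.2, 66.5, 303 and 60.6 CPM in PPARα-deficient hearts. Rsad2 changed by 1.93 ± 0.56 (SE, adjusted p = 0.0106) and 2.33 ± 0.56 (SE, adjusted p = 0.00345). Without Ppara-Flox LPS replicate 4 its first change became 1.10 ± 0.46 (adjusted p = 0.0783) and lost its call, and without PPARα-deficient LPS replicate 3 the second became 1.32 ± 0.41 (adjusted p = 0.0195). Cmpk2 was at 20.5, 17.7, 13.7 and 14.3 CPM in PBS Ppara-Flox hearts and at 17.7, 16.4, 16.3 and 12.998 CPM in PBS PPARα-deficient hearts. After LPS Cmpk2 was at 20.4, 14.4, 14.9 and 30.2 CPM in Ppara-Flox hearts and at 23.01, 21.7, 55.9 and 18.4 CPM in PPARα-deficient hearts. Cmpk2 overlapped the PBS range in Ppara-Flox hearts (0.27 ± 0.30 (SE, adjusted p = 0.525)) and passed the test in PPARα-deficient hearts (0.91 ± 0.31 (SE, adjusted p = 0.0276)). That call was lost without PBS PPARα-deficient replicate 2, 3 or 4 (adjusted p = 0.0511, 0.0524 and 0.0745) and without PPARα-deficient LPS replicate 3 (0.406 on the log2 scale, adjusted p = 0.178). The difference of the Cmpk2 responses between genotypes was 0.63 ± 0.43 (SE, adjusted p = 0.985) and did not pass.

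PARP9, PARP14 and DTX3L join ADP-ribosylation to ubiquitination, and their genes lie together on chromosome 16 (139.7 kb). The 3 rose by similar amounts, with medians of 2.21 and 2.28. Parp9 was at 19.4, 15.8, 14.02 and 15.8 CPM in PBS Ppara-Flox hearts and at 15.4, 15.3, 20.98 and 13.8 CPM in PBS PPARα-deficient hearts. After LPS Parp9 was at 83.1, 72.7, 48.5 and 96.95 CPM in Ppara-Flox hearts and at 83.4, 99.01, 96.5 and 50.3 CPM in PPARα-deficient hearts. Parp9 changed by 2.21 ± 0.23 (SE, adjusted p = 9.98e-07) and 2.33 ± 0.23 (SE, adjusted p = 6.4e-07), Parp14 by 2.22 ± 0.29 and 2.28 ± 0.29, and Dtx3l by 2.15 ± 0.28 and 1.94 ± 0.28. Parp9 and Dtx3l overlap on opposite strands (9.4% and 8.0% of their exon bases), and the strand setting of the counting is not given in the sources used here.

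Of 7 further effectors 6 rose in each genotype. XAF1, a pro-apoptotic protein, led them. Xaf1 was at 9.12, 7.18, 5.84 and 8.27 CPM in PBS Ppara-Flox hearts and at 9.49, 8.99, 10.3 and 6.94 CPM in PBS PPARα-deficient hearts. After LPS Xaf1 was at 48.2, 41.7, 35.99 and 73.5 CPM in Ppara-Flox hearts and at 47.6, 62.9, 91.5 and 51.3 CPM in PPARα-deficient hearts. Xaf1 changed by 2.71 ± 0.24 (SE, adjusted p = 2.37e-07) and 2.83 ± 0.24 (SE, adjusted p = 1.82e-07). Ifi35 changed by 2.03 ± 0.21 and 2.23 ± 0.21, Ifi44 by 2.08 ± 0.45 and 2.29 ± 0.45, Trim30a by 1.41 ± 0.22 and 1.31 ± 0.22, and Ifi27l2a by 1.12 ± 0.16 and 0.85 ± 0.16. Of Ifi35 exon bases 16.8% lie opposite another gene. Rtp4, a chaperone of receptors, changed by 1.13 ± 0.41 (SE, adjusted p = 0.0373) and 1.83 ± 0.42 (SE, adjusted p = 0.0023), and in Ppara-Flox hearts the call was lost without PBS replicate 3 or 4 or LPS replicate 1, 3 or 4 (adjusted p 0.0592 to 0.112). In PPARα-deficient hearts Rtp4 became 2.48 ± 0.36 without PBS replicate 1, the library in which it was highest. Samd9l, a growth and translation restricting factor, did not pass in either genotype. Samd9l was at 22.96, 13.2, 15.6 and 16.2 CPM in PBS Ppara-Flox hearts and at 16.4, 15.3, 17.7 and 15.1 CPM in PBS PPARα-deficient hearts. After LPS Samd9l was at 17.4, 13.96, 18.8 and 21.003 CPM in Ppara-Flox hearts and at 16.1, 22.4, 17.3 and 14.7 CPM in PPARα-deficient hearts. Its ranges overlapped throughout, with changes of 0.07 ± 0.17 (SE, adjusted p = 0.787) and 0.13 ± 0.17 (SE, adjusted p = 0.596).

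**Figure D3:**
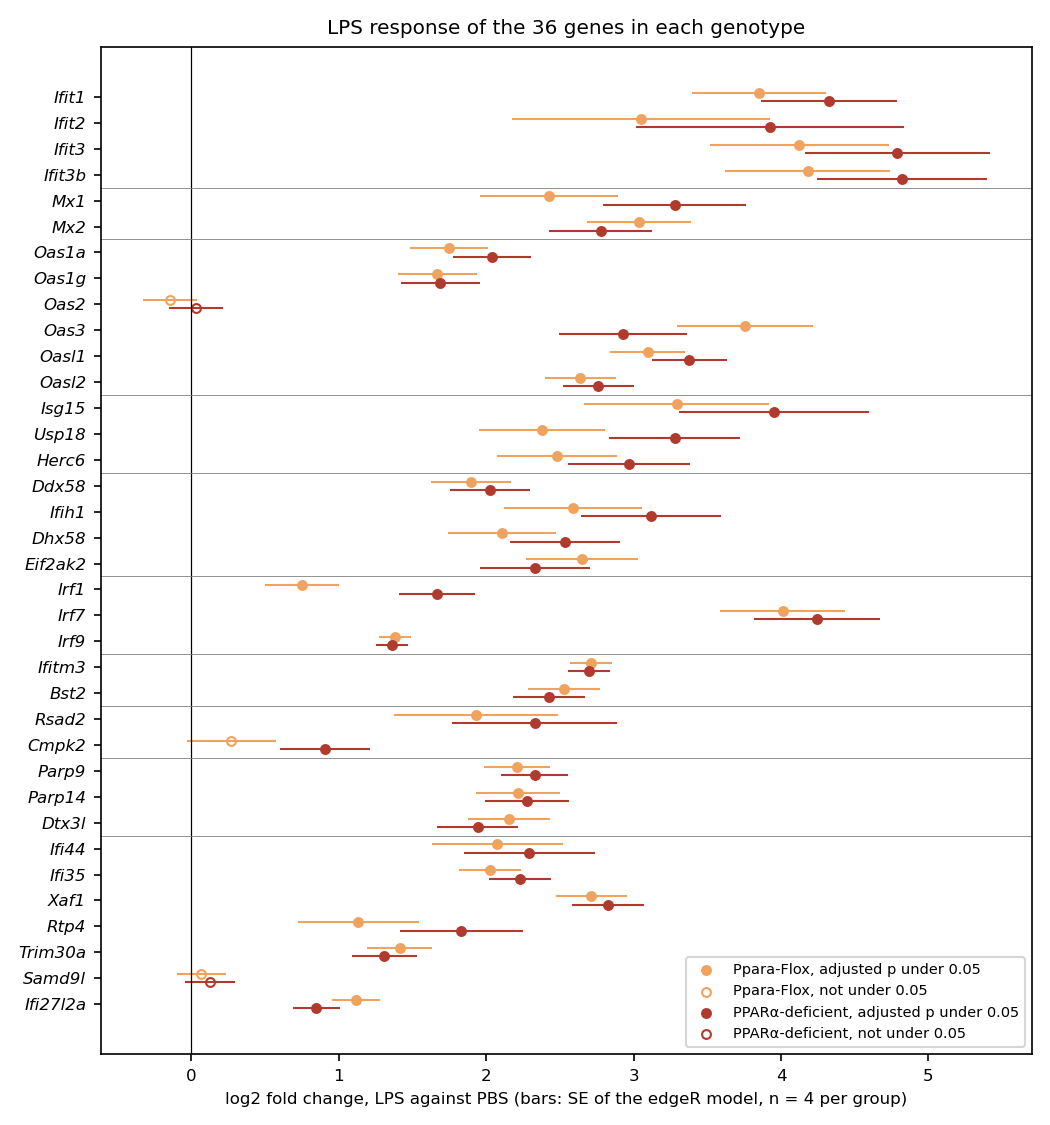
Points give the log2 fold change of LPS against PBS for each gene in Ppara-Flox (orange) and PPARα-deficient (red) hearts, with bars for the SE of the edgeR model and open points where the adjusted p was not under 0.05. Open points belong to Oas2 and Samd9l in both genotypes and to Cmpk2 in Ppara-Flox hearts, and Ifit3 and Ifit3b lie farthest right.

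The rest of the pathway was read from lists of other genes. Over all genes tested 20.2% rose and 19.1% fell in Ppara-Flox hearts, and 19.4% and 18.3% in PPARα-deficient hearts. The list counts that follow were not tested against these shares. None of 19 interferon ligand genes exceeded the floor: 16 were at 0 in all 16 libraries, among them Ifnb1, and the highest count of any was 11 (0.160 CPM), while the floor was 0.152 to 0.178 CPM. Ifng was at 0.11 CPM or less. Among 6 receptor genes 2 rose and 2 fell in each genotype. Ifnar1, a type I receptor chain, was between 17.3 and 28.4 CPM in all libraries and changed by -0.02 ± 0.14 (SE, adjusted p = 0.912) and -0.05 ± 0.14 (SE, adjusted p = 0.826). Its partner Ifnar2 rose by 0.48 ± 0.10 (SE, adjusted p = 0.000955) and 0.74 ± 0.10 (SE, adjusted p = 1.84e-05). Ifngr2, a chain of the interferon gamma receptor, fell (-1.31 ± 0.10 (SE, adjusted p = 3.84e-08) and -1.17 ± 0.10 (SE, adjusted p = 1.37e-07)), as did Il10rb, a shared chain of the interferon lambda and interleukin-10 receptors (-1.15 ± 0.10 (SE, adjusted p = 1.79e-07) and -1.08 ± 0.10 (SE, adjusted p = 3.66e-07)). Under PBS Ifngr2 stood between 108.8 and 137.6 CPM and after LPS between 46.2 and 63.0 CPM.

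Among the signal transducers Stat2, a part of the type I interferon response, rose by 1.70 ± 0.19 (SE, adjusted p = 2.41e-06) and 1.70 ± 0.19 (SE, adjusted p = 2.56e-06), Stat3, the transducer of interleukin-6, by 1.86 ± 0.12 (SE, adjusted p = 6.54e-09) and 1.57 ± 0.12 (SE, adjusted p = 3.62e-08), and Jak2 by 0.71 ± 0.16 (SE, adjusted p = 0.00206) and 0.75 ± 0.16 (SE, adjusted p = 0.00141). Among 19 genes that lead from LPS and nucleic acids to interferon, 9 rose and 2 fell in Ppara-Flox, and 10 rose and 2 fell in PPARα-deficient hearts. Lbp, which carries LPS to its receptor, rose by 2.60 ± 0.15 (SE, adjusted p = 3.53e-09) and 2.71 ± 0.15 (SE, adjusted p = 2.73e-09), and Ikbke, a kinase of IRF3, by 3.71 ± 0.24 (SE, adjusted p = 7.34e-09) and 3.91 ± 0.24 (SE, adjusted p = 4.8e-09). Irf3 did not pass (0.14 ± 0.10 (SE, adjusted p = 0.303) and 0.10 ± 0.10 (SE, adjusted p = 0.503)). Tlr4, the LPS receptor, varied widely within 3 of the 4 groups: it was at 15.8, 2.003, 2.18 and 13.4 CPM in PBS Ppara-Flox, 13.1, 14.7, 14.8 and 12.6 CPM in PBS PPARα-deficient, 14.9, 13.8, 13.8 and 3.49 CPM in Ppara-Flox LPS and 11.1, 2.32, 3.83 and 11.1 CPM in PPARα-deficient LPS hearts. It did not pass (0.46 ± 0.63 (SE, adjusted p = 0.606) and -0.96 ± 0.63 (SE, adjusted p = 0.254)).

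Feedback genes rose in 4 of 6 cases in each genotype. Socs3 changed by 4.23 ± 0.44 (SE, adjusted p = 1.36e-06) and 2.95 ± 0.42 (SE, adjusted p = 3.18e-05), Socs1 by 3.67 ± 0.40 (SE, adjusted p = 1.94e-06) and 4.22 ± 0.41 (SE, adjusted p = 6.66e-07), and the phosphatase gene Ptpn2 by 1.91 ± 0.17 (SE, adjusted p = 1.89e-07) and 1.36 ± 0.16 (SE, adjusted p = 6.18e-06). The lower Socs3 value leans on a single PBS library: PBS PPARα-deficient hearts were at 6.26, 5.93, 8.70 and 32.2 CPM. Over the alternatives it ran from 2.705 to 3.879. Of 45 tested genes in a list of other antiviral interferon-stimulated genes 35 rose and 2 fell in Ppara-Flox hearts, and 34 rose and 2 fell in PPARα-deficient hearts. Uba7, the E1 enzyme for ISG15, rose by 2.61 ± 0.17 (SE, adjusted p = 1.14e-08) and 2.68 ± 0.17 (SE, adjusted p = 9.61e-09), and Ifi207 by 1.94 ± 0.11 (SE, adjusted p = 3.13e-09) and 1.67 ± 0.11 (SE, adjusted p = 1.32e-08). The GBP and IRG GTPases, which attack vacuoles of intracellular microbes and are known as interferon gamma targets, rose in 16 of 17 cases in each genotype, with a median log2 fold change of 3.40 and 3.42. Igtp changed by 5.83 ± 0.34 (SE, adjusted p = 3.54e-09) and 5.50 ± 0.34 (SE, adjusted p = 5.88e-09), and Iigp1 by 5.86 ± 0.35 (SE, adjusted p = 3.66e-09) and 5.71 ± 0.35 (SE, adjusted p = 4.8e-09).

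Marker genes of other cells moved with LPS too. Beside the counts below stand 20.2% of all genes rising and 19.1% falling in Ppara-Flox hearts, and 19.4% and 18.3% in PPARα-deficient hearts. Of 7 tested neutrophil markers 6 rose in each genotype, and the list of 8 summed to 1.66 to 10.6 CPM over all PBS libraries, 23.3 to 51.1 CPM in Ppara-Flox LPS and 28.4 to 32.7 CPM in PPARα-deficient LPS libraries. Their member Ly6g was at 0 in all PBS libraries. Of 6 monocyte markers 4 rose in each genotype (summed level 46.2 to 69.3 CPM under PBS and 61.7 to 77.8 CPM after LPS), while of 8 macrophage markers 1 rose and 4 fell (184 to 252 CPM under PBS and 130.3 to 205 CPM after LPS). None of 3 tested T and NK cell markers passed in either genotype. The 7 cardiomyocyte markers summed to 52246 to 63410 CPM under PBS and to 28930 to 37175 CPM after LPS. Of 5 markers of plasmacytoid dendritic cells 2 were tested, and 1 fell in Ppara-Flox and 2 in PPARα-deficient hearts. Siglech, which defines these cells, was at 0 to 0.469 CPM under PBS and at 0 in all 8 LPS libraries. Tcf4, which other cells express as well, was at 39.2 to 62.3 CPM under PBS and 15.7 to 51.2 CPM after LPS, and Ccr9, Klk1 and Ly6d were at 0.456 CPM or less in every library. The part of these cells in the rise of the 36 genes was not tested.

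Replicates of the LPS groups differed widely for many of the genes. The SD of log2 CPM over the 4 libraries had a median of 0.51 over the 36 genes in Ppara-Flox LPS hearts, where all genes had 0.27, and 0.60 in PPARα-deficient LPS hearts, where all genes had 0.27. Under PBS the medians were 0.33 (all genes 0.26) and 0.26 (all genes 0.24). All-gene values include many genes of low counts: over the 12052 genes whose mean level lay within the range of the 36, the median SD was 0.20 in each LPS group and 0.19 and 0.17 under PBS in Ppara-Flox and PPARα-deficient hearts. For 28 of 36 genes (77.8%) the SD was larger after LPS than under PBS in each genotype, against 51.0% and 55.6% of all genes. It reached 1.63 and 1.83 for Ifit2 and was smallest for Irf9, at 0.11 and 0.10. Above 1 stood Ifit2, Ifit3, Ifit3b, Isg15 and Rsad2 in Ppara-Flox hearts and the same genes except Ifit3b in PPARα-deficient hearts, which is 13.9% and 11.1% of the set and near the share over all genes (11.4% and 11.5%). Below 0.3 stood 6 genes (16.7%, all genes 55.2%) in Ppara-Flox and 5 (13.9%, all genes 54.3%) in PPARα-deficient LPS hearts, with Oas2, Irf9, Ifitm3 and Samd9l in both.

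In each LPS group the same library was highest for most of the genes. Ppara-Flox LPS replicate 4 was the highest of its group for 31 of 36 genes (86.1%, all genes 27.2%), and PPARα-deficient LPS replicate 3 for 29 of 36 (80.6%, all genes 27.6%). Both held for 28 genes, and the exceptions were Oas2, Irf1, Irf9, Ifitm3, Bst2, Parp9, Samd9l and Ifi27l2a. For 26 genes (72.2%, all genes 7.63%) both libraries lay above the other 6 LPS libraries. The median gene stood 0.89 and 0.95 above the mean of the other 3 libraries on the log2 scale. Ifit2 stood 3.21 and 3.41 above it, Rsad2 2.07 and 2.33, and Isg15 2.06 and 2.23. By contrast Ifitm3 stood at -0.32 and -0.23, and Irf9 at -0.10 and -0.13. Without replicate 4 the median SD in Ppara-Flox LPS hearts was 0.23, and without replicate 3 that in PPARα-deficient LPS hearts was 0.30. These libraries were picked as the highest, so a fall in the SD follows from the choice and is given as a description.

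Leaving out both libraries together kept the direction of the set: 32 genes rose in Ppara-Flox and 33 in PPARα-deficient hearts, with medians of 1.88 and 2.09. Rtp4 in Ppara-Flox (0.97 ± 0.42, adjusted p = 0.0915) and Cmpk2 in PPARα-deficient hearts (0.40 ± 0.17, adjusted p = 0.0732) lost their calls. Folds fell by over 1.5 times for 8 genes without Ppara-Flox LPS replicate 4 alone (Ifit2, Ifit3, Ifit3b, Isg15, Herc6, Ifih1, Rsad2 and Ifi44, with remaining changes of 1.10 to 3.41) and for 6 without PPARα-deficient LPS replicate 3 alone (Ifit2, Ifit3, Isg15, Usp18, Ifih1 and Rsad2, 1.32 to 4.08).

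Several measured properties of these 2 libraries were looked at beside the result. Their totals, 72086497 and 72060625, and mitochondrial shares, 24.4% and 27.4%, lay inside the range of the 8 LPS libraries (65569134 to 74498600, 22.8% to 29.2%). Their header numbers, 1766 and 1767, are adjacent, and 1769 is PPARα-deficient LPS replicate 4. The 8 macrophage markers, of which none was at 0, summed to 130.3 CPM in Ppara-Flox replicate 4 (the lowest of a range up to 175.3) and to 205.4 CPM in PPARα-deficient replicate 3 (the highest of a range from 152.8). The 7 tested neutrophil markers summed to 32.9 and 28.2 CPM. All 19 interferon ligand genes stayed under the floor in both. The 6 fibroblast markers stood a median of 0.29 and 0.33 lower than in the other 3 libraries on the log2 scale, and the 6 endothelial markers 0.20 and 0.14 lower. Other genes chosen after their values were seen shared the pattern: Tlr3, a sensor of double-stranded RNA, was at 14.95, 15.7, 16.2 and 49.4 CPM in Ppara-Flox and 15.7, 14.01, 53.7 and 26.5 CPM in PPARα-deficient LPS hearts, and Ube2l6, the E2 enzyme for ISG15, at 34.8, 36.1, 29.4 and 93.4 CPM and 17.1, 27.8, 107 and 61.5 CPM. Whether any of these has a part in the spread was not tested.

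GBP and IRG genes followed a partly different order. In the same 2 libraries 17 of 17 stood above the mean of the other 3, with medians of 0.87 and 0.76. Their lowest libraries were Ppara-Flox LPS replicate 3 (lowest for 16 of 17, all genes 25.1%) and PPARα-deficient LPS replicate 4 (15 of 17, all genes 23.5%), each a median of 1.13 below the others on the log2 scale. The antiviral set had its lowest value in each of these 2 libraries for 13 of 36 genes (36.1%), and most often in Ppara-Flox replicate 2 (21 genes) and PPARα-deficient replicate 1 (18 genes). Igtp was at 765, 620.3, 345 and 833 CPM in Ppara-Flox and 811, 842, 1080.3 and 419 CPM in PPARα-deficient LPS hearts. This difference between the lists was not tested.

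**Figure D4:**
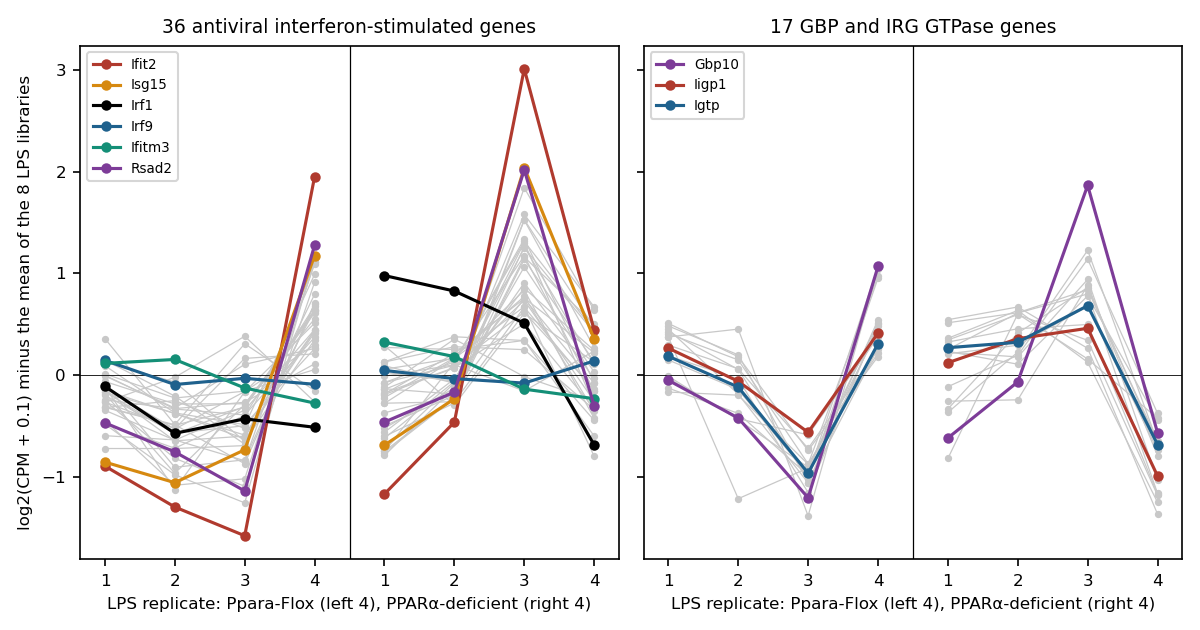
Lines join the 4 LPS libraries of each genotype for every gene, on an axis of log2(CPM + 0.1) minus the gene's mean over the 8 LPS libraries, with the 36 antiviral genes on the left and the 17 GBP and IRG genes on the right. The antiviral genes peak in Ppara-Flox replicate 4 and PPARα-deficient replicate 3 while Irf9 stays flat, and the GBP and IRG genes also dip in Ppara-Flox replicate 3 and PPARα-deficient replicate 4.

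PBS hearts varied less. In Ppara-Flox hearts replicate 1 or 2 was highest for 33 of 36 genes (91.7%, all genes 52.1%) and replicate 3 or 4 lowest for 31 (86.1%, all genes 45.4%). These pairs carry header numbers 962 and 966 against 1069 and 1073. In PPARα-deficient hearts replicates 1 and 3, 1 from each number series, were highest for 15 genes each (41.7%, all genes 24.7% and 23.9%). Replicate 4 was lowest for 19 (52.8%, all genes 25.0%).

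Genotype made no difference that passed the test for any of the 36 genes. Under PBS 0 were higher and 0 lower in PPARα-deficient hearts (all genes 0.0321% and 0.401% by edgeR), with a median difference of 0.11. The difference under PBS was positive for 28 of 36 genes (77.8%, all genes 51.1%), which vary together across libraries. At an unadjusted p under 0.05 there was 1, Oas3 (1.04 ± 0.45, unadjusted p = 0.0335, adjusted p = 0.81 by edgeR), where 2.5% of all genes were higher and 3.07% lower by that measure. The limma-voom and DESeq2 fits also called 0 of the 36. For 1 gene, Eif2ak2, the 4 PPARα-deficient libraries lay above the 4 Ppara-Flox libraries (9.598, 12.1, 13.3 and 10.4 against 9.303, 7.49, 7.31 and 8.51 CPM, all genes 1.57%), and in 0 below them (all genes 2.42%).

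After LPS the edgeR test again gave 0 higher and 0 lower in PPARα-deficient hearts (all genes 0.385% and 0.85%), and 1 gene, Irf1, at an unadjusted p under 0.05 (all genes 4.56% higher and 4.57% lower). DESeq2 called Irf1 as well. The fitted difference was positive for 35 of 36 genes (all genes 51.5%), with a median of 0.34 on the log2 scale (all genes 0.01), and 0.32 without the 2 libraries described above, again with 35 positive. The genes vary together across libraries, so these are not 35 separate observations. In no gene were the 2 groups of 4 fully apart (all genes 2.53% with PPARα-deficient hearts higher and 2.79% with them lower). The difference was 1.04 ± 0.81 (SE, adjusted p = 0.834) for Ifit2, 0.82 ± 0.57 (SE, adjusted p = 0.791) for Isg15 and 0.59 ± 0.40 (SE, adjusted p = 0.779) for Ifit1, each less than 1.5 SE from 0. It was 0.04 ± 0.11 (SE, adjusted p = 0.985) for Irf9 and 0.07 ± 0.13 (SE, adjusted p = 0.964) for Ifitm3, where the narrow spread leaves a small SE. The test of whether LPS acted differently in the genotypes also gave 0 genes in either direction among the 36 and 0 among all genes (0.0%), with 1 at an unadjusted p under 0.05, again Irf1 (all genes 2.77% higher and 2.97% lower), and DESeq2 called 0 of the 36.

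Irf1 came closest to a genotype difference. Irf1 was at 15.4, 19.97, 20.997 and 17.9 CPM in PBS Ppara-Flox hearts and at 23.6, 15.6, 16.5 and 19.5 CPM in PBS PPARα-deficient hearts. After LPS Irf1 was at 38.1, 27.6, 30.5 and 28.8 CPM in Ppara-Flox hearts and at 81.3, 73.1, 58.7 and 25.5 CPM in PPARα-deficient hearts. In the LPS groups replicates 1 to 3 of the PPARα-deficient hearts lay above all 4 Ppara-Flox hearts, and replicate 4 lay below all of them. The difference was 0.93 ± 0.25 (SE, adjusted p = 0.105) in edgeR, and 0.94 with an adjusted p of 0.0106 in DESeq2. Without PPARα-deficient LPS replicate 4 it was 1.18 ± 0.16 (adjusted p = 0.000734), and without replicate 1 it was 0.75 ± 0.25 (adjusted p = 0.27). The adjusted p over all alternatives ran from 0.000734 to 0.342. Replicate 4 was also the library lowest for 15 of 17 GBP and IRG genes, and whether the 2 are linked was not tested. The difference of LPS responses was 0.91 ± 0.35 (SE, adjusted p = 0.814).

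**Figure D5:**
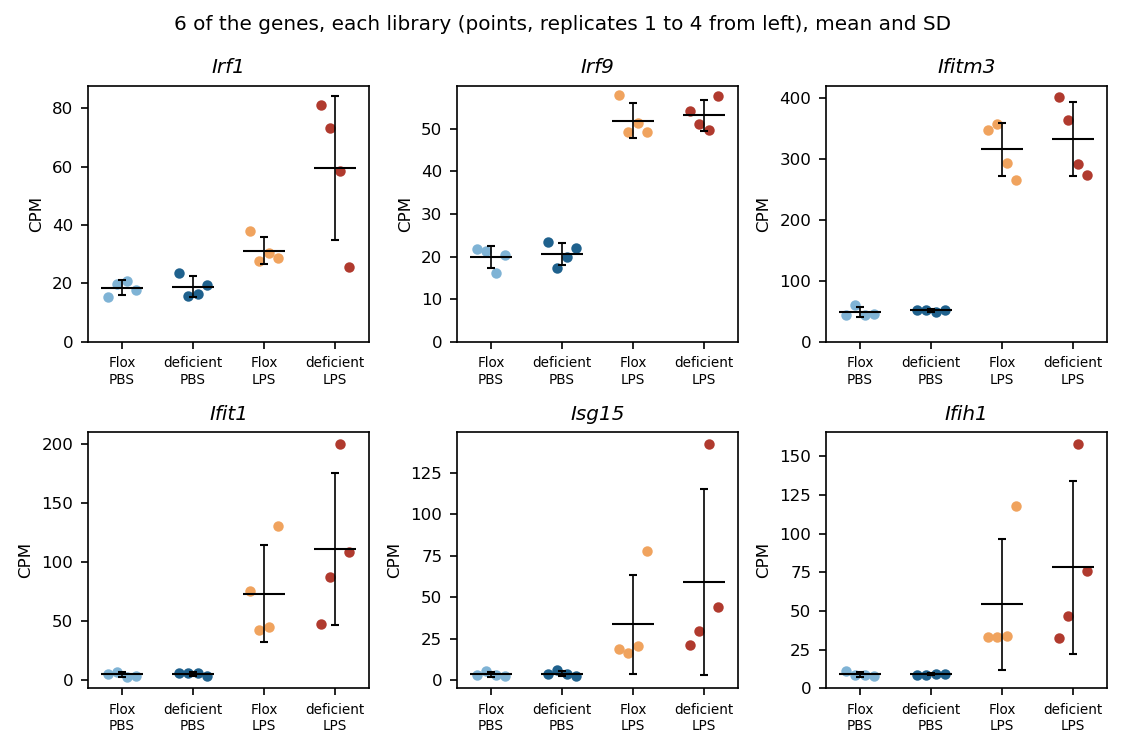
Points are the CPM of single libraries (replicates 1 to 4 from left) for 6 genes in the 4 groups, with the mean as a line and the SD as a bar. Irf9 and Ifitm3 form tight LPS groups, and Isg15 and Ifih1 have 1 high library in each LPS group. Ifit1 is highest in the same libraries, with more graded values among the others. For Irf1 3 of the 4 PPARα-deficient LPS libraries exceed all Ppara-Flox ones.

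Of the 36 genes 21 lie in 8 groups with another of the set within 1 Mb, a count that was not compared with other genes. In these groups the 4 Ifit genes rose in each genotype, as did Parp9, Parp14 and Dtx3l, while Oas2 did not pass in either and Cmpk2 did not pass in Ppara-Flox hearts. Differences between neighbouring genes were not tested.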

How the data were processed

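RNA of 16 hearts was sequenced, and the deposited tables hold estimated counts for each gene (expected counts, all whole, with no scaling across libraries). Per the submitters' processing notes, the tools included DESeq2 1.30.1, StringTie 1.3.3b, HISAT and fastp 0.23.2, with the build GRCm38. Which tool counted, the annotation and the strand setting are not given in the sources used here. Of 55421 lines 27 with date-like symbols were left out and 116 repeated lines summed. Totals divided by 4 (16392284 to 18859006) are taken as nearer to read pairs, and intervals and floors cover counting error only.

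Genes were filtered by filterByExpr, scaled by TMM and fitted as 4 group means over 16 libraries with edgeR 4.0.16 (quasi-likelihood F test, Benjamini-Hochberg adjustment over 18713 genes, R 4.3.3), and a gene is said to rise or fall at an adjusted p under 0.05. The SE is the log2 fold change divided by the root of F. Spread is the SD of log2 CPM with a prior count of 2. CPM values per library use TMM scaling without a prior. DESeq2 1.42.0, limma 3.58.1 (voom), other scalings, filters and thresholds, a block for the replicate number and omitting single libraries were alternatives. Chosen after seeing the data were leaving out 2 LPS libraries together and the PBS number series as a block. Values per library are given for members with the smallest adjusted p of their group in an LPS comparison, those that missed the test, and a few named after their values were seen (Ifit2, Isg15, Ifih1, Irf1, Irf7, Tlr4, Igtp). Of each of 6 pathway lists the 2 genes with the smallest adjusted p in each LPS comparison were named (marker lists are given by counts and sums, with a few genes named after their values were seen), beside Ppara, Ifnb1, Ifng, Ifnar1, Ifnar2, Stat2, Irf3 and Tlr4. Of the genes the rule names, 1 is not reported here. The members and lists were chosen with earlier results of these data known. Positions and exon lengths are from GENCODE vM21, promoters from RefSeq.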

Additional observations from a re-analysis of the deposited data

Results flagged for a closer look

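On log2 values, 144 sets of 4 libraries (36 genes in 4 groups) were held against Dixon's 95% limit. In 13 sets a library's gap to its nearest neighbour took up more of the range than the limit allows. For separate sets chance would give about 1 in 20, or 7.2. The genes vary together across libraries, so the sets are not separate and 13 beside 7.2 is a description. Ifit2, the gene with the widest LPS spread, did not pass the limit on this scale. CPM values are given below. After LPS, Ppara-Flox replicate 4 stood high for Isg15 (78.1 CPM), Ddx58 (86.1 CPM), Ifih1 (118 CPM) and Ifi44 (46.1 CPM), and PPARα-deficient replicate 3 for Rsad2 (303 CPM) and Bst2 (140 CPM). PPARα-deficient LPS replicate 4 stood low for Oas3 (3.28 CPM). Under PBS, PPARα-deficient replicate 4 stood low for Ifit1 (3.5 CPM) and Oasl1 (1.32 CPM) and high for Oas3 (1.03 CPM), and replicate 1 stood high for Rtp4 (10.8 CPM). In PBS Ppara-Flox hearts replicate 1 stood high for Parp14 (30.8 CPM) and replicate 2 for Oasl1 (3.04 CPM).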

How the results depend on the processing

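Counts of the 36 genes called stayed within 1.5 times of those given, and median spreads within 1 SD of the spread among the genes, for 314 of 316 values. The exceptions were the genes higher in PPARα-deficient than in Ppara-Flox hearts after LPS, which became 1 (Irf1) with DESeq2, and ranged from 0 to 1 (Irf1, without PPARα-deficient LPS replicate 4) when single libraries were left out. Counts of 0 that stayed at 0 are among the values that held. The limit for the spread is wide: a median SD of 0.505 counted as held at 0.231 without Ppara-Flox LPS replicate 4. Likewise 0.601 counted as held at 0.305 without PPARα-deficient LPS replicate 3. Of the fold changes of single named genes 3192 kept direction and side, 38 lost and 2 gained their call and 16 changed sign, all 16 uncalled. In Ppara-Flox hearts, Ifit2 with limma-voom (adjusted p = 0.0585), Irf1 with limma-voom (0.0521) and Rtp4 without a filter (0.0593) lost their calls, and in PPARα-deficient hearts Cmpk2 did with limma-voom (0.0532). Sign changes came from leaving out single libraries, over which Oas2 in PPARα-deficient hearts ranged from -0.045 to 0.203, Samd9l from -0.009 to 0.206 and Ifnar1 from -0.187 to 0.056, and in Ppara-Flox hearts Cmpk2 ranged from -0.003 to 0.400, Samd9l from -0.036 to 0.248 and Ifnar1 from -0.115 to 0.067. Oas2 in PPARα-deficient hearts was also -0.016 with upper-quartile factors and -0.024 without both high LPS libraries, which put Cmpk2 at -0.002 and Samd9l at -0.024 in Ppara-Flox hearts. The cause was not tested. Over all genes after LPS, DESeq2 called 200 higher and 244 lower between genotypes (edgeR 72 and 159) and under PBS 48 and 135 (edgeR 6 and 75), and for the difference of LPS responses 26 and 29 (edgeR 0 and 0, and at most 4 in other settings). In LPS hearts, genes higher in PPARα-deficient than in Ppara-Flox hearts numbered 44 without the filter and 25 in a fit of those 8 libraries. They numbered 45 with the replicate block and 18 at an adjusted p under 0.01. Leaving out Ppara-Flox LPS replicate 2 gave 33, and leaving out replicate 1 gave 36. There were 39 without PPARα-deficient LPS replicate 3, 41 without replicate 4 and 44 without both high libraries. In PBS hearts, genes higher in PPARα-deficient than in Ppara-Flox hearts numbered 12 in a fit of 8 libraries and 13 with the number series as a block. They numbered 10 without PPARα-deficient LPS replicate 1 and 2 at an adjusted p under 0.01. A 2-fold minimum left 1511 higher and 1514 lower after LPS in Ppara-Flox and 1432 and 1352 in PPARα-deficient hearts (3771, 3583, 3632 and 3429 without it), and 18 higher and 62 lower between genotypes after LPS and 33 lower under PBS. Same-numbered libraries did not deviate together (r from -0.07 to 0.07 over 24 pairs, 5 of 16 closest to their own number). With the replicate number as a block 33 genes rose in each genotype, and Cmpk2 in PPARα-deficient hearts was 0.857 (adjusted p = 0.0573). Depth limits Mx1, Oas3 and the interferon ligands most.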
